A study of Danio rerio with 12 samples.

Results

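The germ plasm genes *kop*, *ca15b*, *nanos3*, *dnd1*, *dazl*, *ddx4* and *piwil1* were followed in zebrafish blastulae with and without ethanol. They were chosen by name, with earlier results of these data known, as 7 of the 8794 named genes on the array. They were read by 9 of its 15617 probe sets, because *dnd1* and *piwil1* have 2 each, and all 9 passed the minimum mean signal of 50 in at least 1 treatment. Embryos of the ABTL strain, with no mutation or transgene named, were kept in embryo medium alone (control) or with 100 mM ethanol from 2 hours postfertilization (hpf), and RNA was taken from both at 4.5 hpf, before gastrulation. Each of 6 independent experiments gave 1 pool of 20 control and 1 pool of 20 ethanol-exposed embryos, and each pool was hybridized to its own Affymetrix Zebrafish Genome Array. The pools are of whole embryos, in which the germ line is a very small share of the cells. In such bulk RNA, fewer germ cells and less RNA per cell cannot be told apart, nor can RNA inside germ plasm and the same RNA in somatic cells.

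Germ plasm is a mass of maternal RNA and protein, laid down in the egg, whose inheritance makes a cell of the early zebrafish embryo a primordial germ cell. Its RNAs encode mostly RNA-binding proteins and small-RNA factors that guard translation, silence transposons and keep the cells from a somatic fate. Outside the germ plasm, many of the same maternal RNAs are cleared after the zygotic genome is switched on, in part through the microRNA miR-430. Exposure here began before that switch, and RNA was taken before gastrulation. How much of the clearance fell within the exposure was not measured. The comparison asked how the level of these RNAs differed between ethanol-exposed and control embryos of the same experiment.

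Values are deposited MAS5 signals, a background-corrected brightness per probe set that the authors had scaled to the same trimmed mean on each array. The array medians ran from 91.6 to 106.6. Signals of different probe sets cannot be compared with each other, since probes differ in response, and precision is set by the 6 arrays a treatment has. Log2 fold changes come from limma, with terms for ethanol and for experiment. A call needed an unadjusted p under 0.03, an adjusted p (Benjamini-Hochberg) under 0.15 and a log2 fold change of at least 0.32 in size, which are the limits set in the study's methods. On this rule 527 of 9767 tested probe sets (5.40%) were called, 369 higher (3.78%) and 158 lower (1.62%). That split toward higher depended on scaling, with 103 higher and 145 lower after quantile normalization, and 60 higher and 120 lower after centring each array on its median.

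Of the 9 germ plasm probe sets, 2 rose with ethanol, for *kop* and for 1 of the 2 *dnd1* probe sets, and none was called lower. The median log2 fold change over the 9 was 0.28, against 0.05 over all tested probe sets. It varied between experiments, with median log2 ratios of 0.13, 0.16, 0.40, 0.40, 0.18 and -0.04 in experiments 1 to 6 (SD 0.17). The medians over all tested probe sets were 0.03 to 0.09. Of the 9 log2 fold changes, 6 were positive, a share near the 59.7% of all tested probe sets, and 3 were negative. *ca15b* entered through the study's list of changed probe sets, and without it the median over the other 8 was 0.24, with 5 positive. For 2 of these 8, *kop* and *dnd1* on S1_s_at, the ethanol array was above its own control in all 6 experiments (795 of all tested, 8.14%), and for 1, *ddx4*, it was below in all 6 (375 of all tested, 3.84%). Control and ethanol signals overlapped for every one of the 9, while the treatments did not overlap for 0.594% of tested probe sets. Neither call held when any 1 of the 6 experiments was left out, or without the experiment term as a block (limma adjusted p = 0.746 for *kop* and 0.602 for *dnd1*). Median centring ended both calls (limma adjusted p = 0.198 for *kop* and 0.222 for *dnd1*), and quantile normalization that of *dnd1* (0.213). These settings also cut the 527 calls over all tested probe sets. There were 21 to 143 with 1 experiment left out, 1 without the block, 180 with median centring and 248 with quantile normalization.

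**Figure D1:**
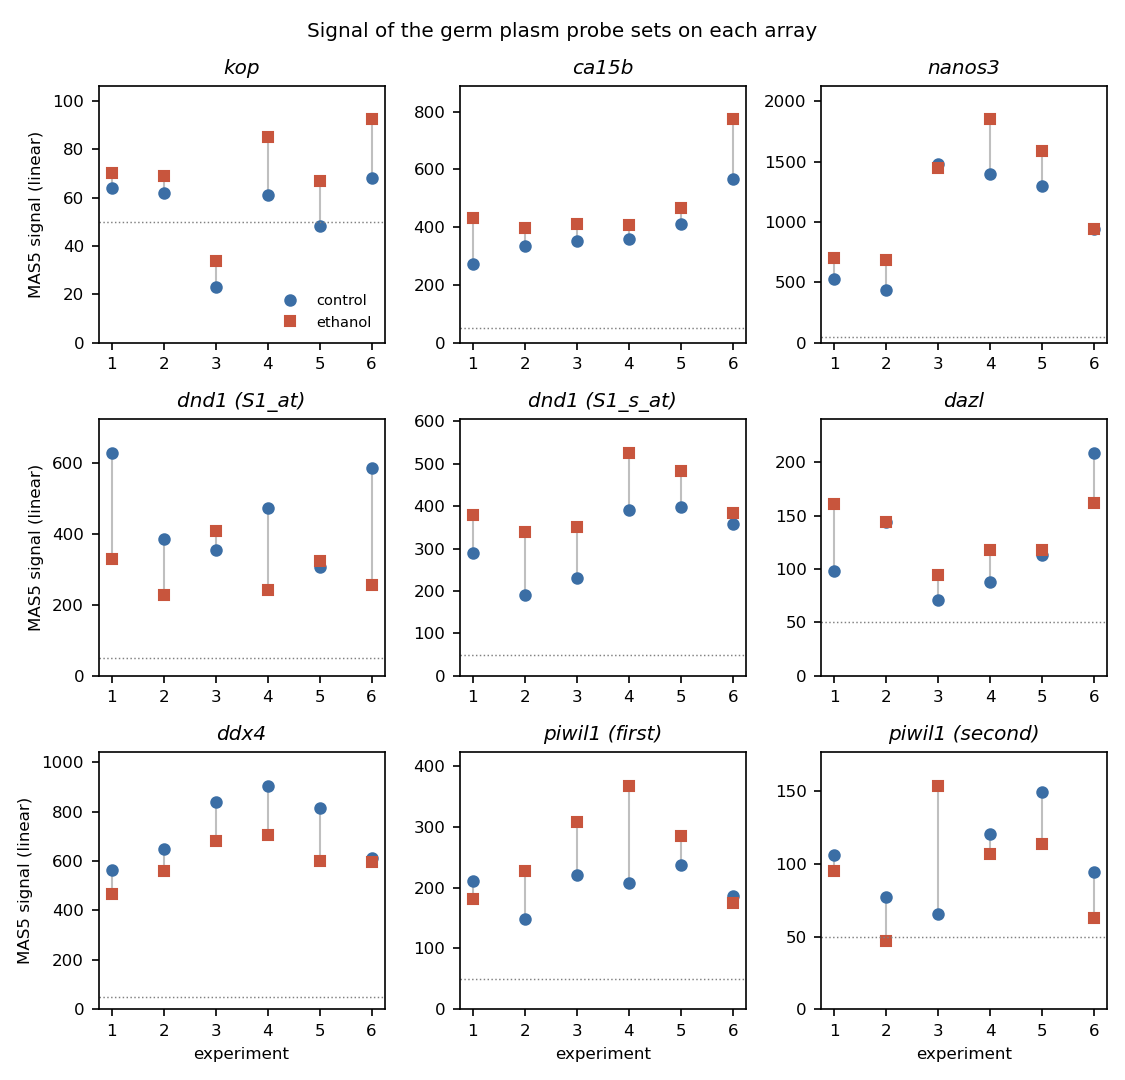
MAS5 signal (linear axis) of each germ plasm probe set in each experiment, with the control (circle) and ethanol (square) array of an experiment joined by a line and the minimum signal of 50 dotted. The ethanol array is the higher in all 6 experiments for *kop*, *ca15b* and *dnd1* on S1_s_at and the lower in all 6 for *ddx4*, while the ranges of the treatments overlap in every panel.

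*kop* (askopos) is a maternal transcript whose promoter is widely used to drive expression in zebrafish germ cells. Its signal was 22.8 at the lowest, 61.6 at the median and 68.2 at the highest in control arrays, and 33.7, 69.6 and 92.4 in ethanol arrays. Both low values came from experiment 3, and apart from that pair the treatments overlapped only in that the lowest ethanol array (67.0) lay under the highest control array (68.2). The mean went from 54.4 ± 16.8 (SD, n = 6) to 69.6 ± 20.3 (SD, n = 6), a log2 fold change of 0.37 (SE 0.09, 95% interval 0.16 to 0.59, limma adjusted p = 0.124). The log2 ratio within experiments ran from 0.13 in experiment 1 to 0.56 in experiment 3, and an exact permutation test that flips the signs of the 6 ratios (two-sided) gave p = 0.03125, the smallest that 6 pairs allow. *kop* lay close to the signal minimum, so that at a minimum of 100 it was not tested, and with 50 added to each signal its adjusted p was 0.230 in limma. With experiment as a random block in limma the call was lost as well (adjusted p = 0.289), and with the methods' own model fitted to these values it was kept (q = 0.102). Leaving out 1 experiment at a time gave log2 fold changes of 0.34 to 0.42 with limma adjusted p of 0.174 to 0.245.

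*ca15b* encodes a carbonic anhydrase whose RNA marks the germ plasm of zebrafish. The platform annotation used here has no gene for its probe set, and the name came from the study's own list of changed probe sets. Its change was therefore known when the probe set entered, and its values are a description only. In control arrays the signal was 271 at the lowest, 355 at the median and 566 at the highest, and in ethanol arrays 398, 422 and 773. Both top values came from experiment 6, and 5 of the 6 ethanol arrays lay inside the control range. Control arrays averaged 382 ± 100.5 (SD, n = 6) and ethanol arrays 482 ± 145 (SD, n = 6), with a log2 ratio between 0.18 and 0.68 and above 0 in 6 of 6 experiments. The log2 fold change was 0.33 with an SE of 0.10, and it just missed the threshold in limma (adjusted p = 0.159). The neighbouring paralog *ca15a* could share probes with it, which was not tested.

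*nanos3* encodes a zinc-finger translational repressor that primordial germ cells need to survive and migrate, and its 3′ end is a known target of miR-430 in somatic cells. The signal was 529, 439, 1482, 1402, 1299 and 942 in the control arrays of experiments 1 to 6, and 702, 682, 1449, 1850, 1590 and 938 in the ethanol arrays. Experiments 1 and 2 were low in both treatments, experiments 3 to 5 were high in both, and experiment 6 lay between them. Within experiments the log2 ratio was 0.41, 0.64, -0.03, 0.40, 0.29 and -0.01, so that 4 of 6 were above 0 and the other two lay near it. Control arrays had a mean of 1015 ± 452 (SD, n = 6) and ethanol arrays one of 1202 ± 494 (SD, n = 6). The log2 fold change of 0.28 (SE 0.11, 95% interval 0.03 to 0.54) did not pass the test, with limma adjusted p = 0.244 and p = 0.125 in the exact sign-flip permutation test. An array probe set labelled *nos1*, an older name of *nanos3*, carries the gene ID of neuronal nitric oxide synthase and lay under the signal minimum (2.84 to 40.6), and it was not counted as *nanos3*.

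*dnd1* (dead end) encodes an RNA-binding protein that keeps miR-430 off germ cell transcripts such as *nanos3*. Its 2 probe sets carry the same gene in the annotation but ran in opposite directions. On the one whose identifier ends in S1_s_at, the signal was 191 at the lowest, 324 at the median and 398 at the highest in control arrays, and 338, 380.4 and 525.7 in ethanol arrays. The ethanol array was above its control in every experiment, by 0.10 (experiment 6) to 0.82 (experiment 2) on the log2 scale. This probe set rose from 309 ± 86.4 (SD, n = 6) to 409.7 ± 76.6 (SD, n = 6), a log2 fold change of 0.44 (SE 0.11, 95% interval 0.18 to 0.69, limma adjusted p = 0.124), with the smallest sign-flip permutation p, 0.03125. Without 1 experiment at a time the log2 fold change was 0.36 to 0.51, and limma adjusted p was 0.158 to 0.243.

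On the other, ending in S1_at, the *dnd1* signal was 306 at the lowest, 430.1 at the median and 630 at the highest in control arrays, and 228, 291 and 409 in ethanol arrays. Ethanol arrays of experiments 1, 2, 4 and 6 were below their controls, with log2 ratios of -0.93, -0.76, -0.97 and -1.19, while experiments 3 and 5 had ratios of 0.20 and 0.08. Control arrays averaged 456 ± 130.2 (SD, n = 6) and ethanol arrays 299 ± 68.7 (SD, n = 6). The log2 fold change of -0.59 (SE 0.20, 95% interval -1.06 to -0.13) missed the threshold, with limma adjusted p = 0.199. This probe set was called lower with experiment as a random block (limma adjusted p = 0.108), with 50 added to each signal (0.0935) and at a signal minimum of 100 (0.113). In the same settings S1_s_at was called higher (limma adjusted p = 0.124, 0.0662 and 0.0642).

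The difference between the 2 *dnd1* log2 ratios, S1_s_at minus S1_at, was 1.03 ± 0.58 (SD, n = 6) and above 0 in 6 of 6 experiments, from 0.20 to 1.58. Flipping the signs of the 6 differences (exact two-sided permutation test) gave p = 0.03125, or 0.0625 after Benjamini-Hochberg adjustment over the 2 genes with 2 probe sets. Over the 12 arrays the log2 signals of the 2 probe sets had a Pearson r of -0.33. The 2 probe sets gave no single direction for *dnd1* RNA, and the mean of both probe sets gave a log2 fold change of -0.08 (limma adjusted p = 0.781). Where on the transcript each probe set lies, and whether either also reads another transcript, was not tested.

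*dazl* encodes an RNA-binding protein that promotes translation of germ line messages. The signal was 71.3 at the lowest, 105 at the median and 209 at the highest in control arrays, and 94.0, 131 and 162 in ethanol arrays. Every ethanol array lay within the control range. The log2 ratio was above 0 in 5 of 6 experiments, up to 0.72 in experiment 1, and was -0.37 in experiment 6. A log2 fold change of 0.21 (SE 0.14) had a 95% interval of -0.13 to 0.54, and limma adjusted p was 0.467. The value was 0.10 without experiment 1 and 0.32 without experiment 6, and was called in neither case.

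*ddx4* (vasa) encodes a DEAD-box RNA helicase that is a core component of germ granules. Its signal was 562 at the lowest, 733 at the median and 905 at the highest in control arrays, and 468, 597 and 705 in ethanol arrays. The ethanol array was below its control in all 6 experiments, with log2 ratios from -0.44 in experiment 5 to -0.04 in experiment 6, although the treatments overlapped. Control arrays averaged 730.4 ± 139.8 (SD, n = 6) and ethanol arrays 601 ± 85.9 (SD, n = 6). Its log2 fold change of -0.27 (SE 0.09, 95% interval -0.47 to -0.07) was not called, with limma adjusted p = 0.176 and a change under the minimum size, although the exact sign-flip permutation p was the smallest possible, 0.03125. With the methods' own model fitted to these values *ddx4* passed on q (0.102) and missed on size alone. Its log2 fold change was -0.34 with quantile normalization and with median centring, not called in either (limma adjusted p = 0.158 and 0.180). *ddx4* had the narrowest spread of ratios among the 9 probe sets (SD 0.14, n = 6).

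*piwil1* (ziwi) encodes a PIWI protein that binds piRNAs, the small RNAs that silence transposons in germ cells. On its first probe set the signal was 149 at the lowest, 209 at the median and 238 at the highest in control arrays, and 174, 257 and 368 in ethanol arrays. The treatments overlapped. The ratio was above 0 in 4 of 6 experiments, with experiments 1 and 6 below 0, and the log2 fold change was 0.31 (SE 0.15, 95% interval -0.04 to 0.66, limma adjusted p = 0.318). On its second probe set the lowest, median and highest signals were 65.3, 100.1 and 149 in control arrays and 47.1, 101.1 and 154 in ethanol arrays, so that the ethanol range took in the control range. There 5 of 6 ratios were below 0 and that of experiment 3 was 1.24, for a log2 fold change of -0.13 (SE 0.24, 95% interval -0.68 to 0.42, limma adjusted p = 0.802). Without experiment 3 that value was -0.40 (limma adjusted p = 0.236) and the probe set was called for experiment (limma adjusted p = 0.0375), and without experiment 2 it was -0.01. The ratios of the 2 *piwil1* probe sets differed by -0.44 ± 0.75 (SD, n = 6) with an exact permutation p of 0.25, so no difference between them could be shown, and the interval of each ratio takes in 0.

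**Figure D2:**
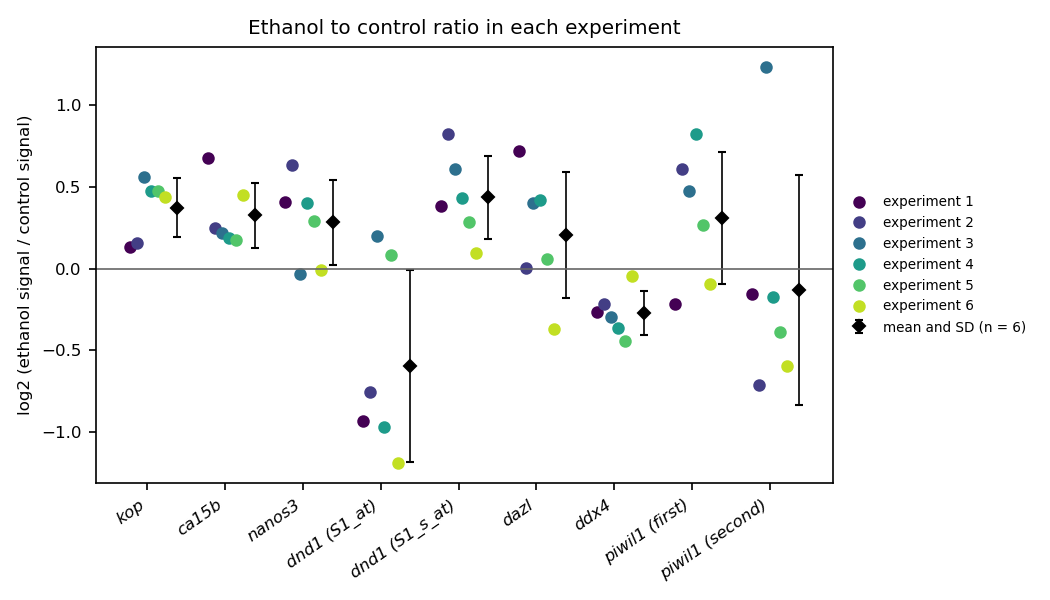
Log2 ratio of ethanol to control signal in each of the 6 experiments (coloured points) for the 9 germ plasm probe sets, with the mean and SD over the experiments (black, n = 6). All 6 points lie above 0 for *kop*, *ca15b* and *dnd1* on S1_s_at and below 0 for *ddx4* (SD 0.14), while the second *piwil1* probe set has 1 point at 1.24 and the other 5 below 0.

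Experiment took a larger share of the variation than ethanol for every germ plasm probe set except *dnd1* S1_at, with 5 experiment terms against 1 for ethanol in the fit. An F test of the experiment terms called 3 of the 9 germ plasm probe sets at an adjusted p under 0.05 (17.9% of all tested probe sets): *nanos3* (F = 24.8, limma adjusted p = 0.00506), *kop* (F = 22.6, limma adjusted p = 0.00604) and *ca15b* (F = 8.30, limma adjusted p = 0.0357). Without *ca15b*, which had entered through its reported change on these arrays, 2 of 8 were called for experiment. Experiment accounted for 91.9% of the sum of squares of log2 *nanos3* signal and ethanol for 4.75%. For *kop* these shares were 85.7% and 11.9%. Over all tested probe sets the medians were 63.4% for experiment and 6.38% for ethanol, and the median experiment share of the 9 was 68.2%.

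The mean of the 2 arrays of an experiment differed 2.94-fold between the highest (experiment 4) and the lowest (experiment 2) for *nanos3*, against a median of 1.62-fold over all tested probe sets, and 8.95% of them had a wider range. *nanos3* kept its experiment call without any 1 experiment (limma adjusted p 0.0096 to 0.0168). The *kop* range of 2.86-fold rested on experiment 3, and without it the experiment call was lost (F = 2.31, limma adjusted p = 0.287). Both *kop* signals of experiment 3 (22.8 and 33.7) lay under the signal minimum of 50. The *kop* call was also lost with no signal filter (limma adjusted p = 0.0505), and was kept with 50 added (F = 6.15, limma adjusted p = 0.0213). The *ca15b* range of 1.93-fold had its top in experiment 6. Its call was lost without experiment 6 (limma adjusted p = 0.624), without experiment 2 (0.0538) or 4 (0.0509), with quantile normalization (0.0556), with median centring (0.0562) and with no signal filter (0.138). *dnd1* S1_at had 43.5% of the sum of squares for ethanol and 21.1% for experiment.

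**Figure D3:**
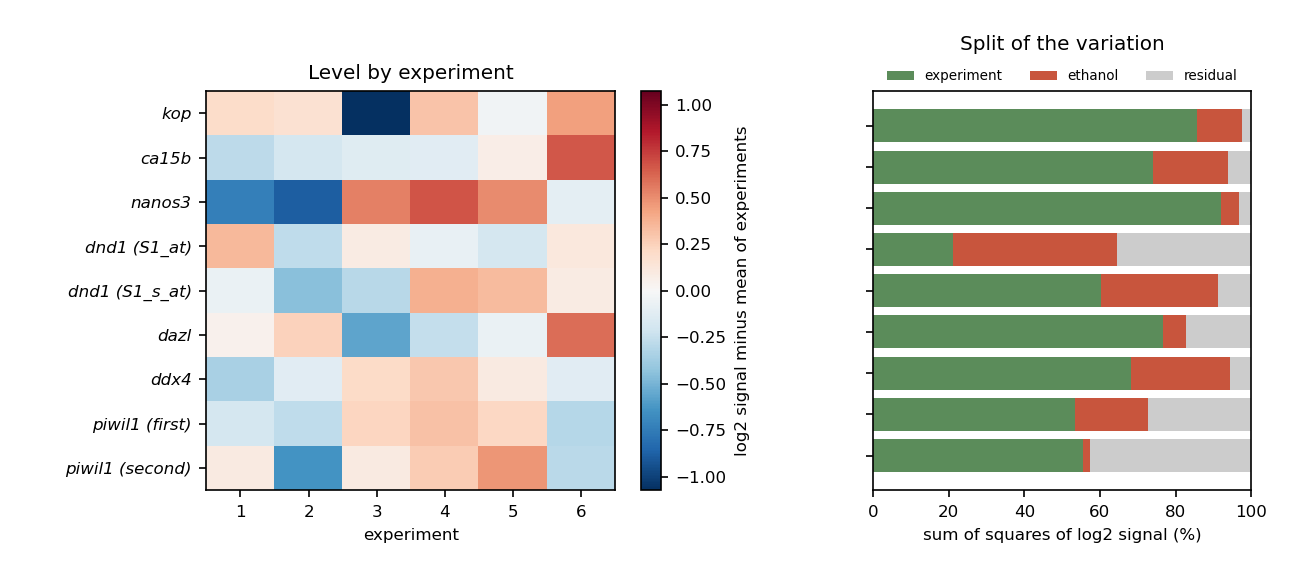
Left, log2 signal of each germ plasm probe set in each experiment (mean of its 2 arrays minus the mean of the experiments), and right, in the same row order, the percent of the sum of squares of log2 signal that goes with experiment, ethanol and residual. Experiment 3 is the low point of *kop*, experiments 1 and 2 those of *nanos3* and experiment 6 the high point of *ca15b*, and the experiment share runs from 21.1% (*dnd1* S1_at) to 91.9% (*nanos3*).

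The 7 genes did not share 1 profile across experiments. As a description over 12 arrays, which share experiments in pairs, the highest Pearson r between log2 signals of different members was 0.75, for *nanos3* and the first *piwil1* probe set, followed by 0.69 for *kop* and *dazl*. The lowest was -0.65, for *dazl* and *ddx4*. The mean of the members' standardised signals was taken over the 7 genes, each by its brightest probe set, which left out *dnd1* S1_s_at. The probe sets within it had an r of -0.06 (*dnd1* S1_at) to 0.64 (*nanos3*) with that mean, and *dnd1* S1_s_at had 0.77. That mean profile was most like those of *sufu* (r = 0.94), *zgc:162816* (r = 0.93) and *lamp1b* (r = 0.92), among 6404 other genes over the same 12 arrays, and none of these 3 was called with ethanol.

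Other germ granule and piRNA genes were read from a list of 23, of which 13 had a tested probe set. None of the 13 was called with ethanol (5.40% of all tested probe sets). A positive log2 fold change was seen for 12 of 13 (59.7% of all tested), and their median was 0.23 against 0.05 over all tested probe sets. The 13 were read on the same 6 pairs of arrays, so their directions are not independent of each other. With median centring these were 12 of 13 and 0.16, against -0.02 over all tested probe sets. With quantile normalization they were 11 of 13 and 0.16, against 0.02 over all. There 2 other lists had higher medians, other maternal oocyte transcripts (0.22) and the list named whole blastula (0.19). *buc*, whose protein Bucky ball organizes the germ plasm in the egg, had a signal of 393 ± 73.6 (SD, n = 6) in controls and 501 ± 89.0 (SD, n = 6) in ethanol arrays, higher in 5 of 6 experiments, with limma adjusted p = 0.215. *tdrd7a*, which encodes a Tudor domain scaffold of germ granules, was at 739 ± 111 (SD, n = 6) and 948 ± 253 (SD, n = 6), higher in 5 of 6, with limma adjusted p = 0.206. The 1 gene with a negative value was *gra* (log2 fold change -0.11), which encodes another germ plasm RNA of zebrafish. *igf2bp3*, which encodes an RNA-binding protein and had the highest signal in the list, had a log2 fold change of 0.31 (limma adjusted p = 0.410). *buc*, *tdrd7a* and *gra*, and *cxcr4b*, *cxcl12a* and *gdf3* in the lists that follow, were chosen with their values known.

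The F test for experiment called 2 of 13, a share near the 17.9% of all tested probe sets, *cpeb1b* (F = 30.6, limma adjusted p = 0.00348) and *tdrd6a* (F = 8.13, limma adjusted p = 0.0372). *cpeb1b* encodes a protein that controls polyadenylation of maternal messages. Its mean signal in experiments 1 to 6 was 318, 257, 731, 753, 935 and 759, with experiments 1 and 2 low as for *nanos3*. Its ethanol array was higher in 6 of 6 experiments, with a log2 fold change of 0.35 (limma adjusted p = 0.180).

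Genes of the chemokine system that guides germ cells, with *cdh1* and *rgs14a*, were not called in either direction (0 of 6, median log2 fold change 0.15). *cdh1*, which encodes E-cadherin, had the highest signal of these and went from 4942 to 5487 on average (log2 fold change 0.15, limma adjusted p = 0.431). The chemokine receptor gene *cxcr4b* had a log2 fold change of -0.12 and its ligand gene *cxcl12a* one of 0.24, neither of them called.

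Of 12 other maternal oocyte transcripts, 2 rose and 1 fell (3.78% and 1.62% of all tested probe sets). *btg4*, an adaptor of messenger RNA deadenylation, rose from 535 ± 237 (SD, n = 6) to 773 ± 275 (SD, n = 6), a log2 fold change of 0.55 (SE 0.12, limma adjusted p = 0.108) and higher in 6 of 6 experiments. *mos*, a kinase that holds the egg in meiosis, rose from 191 ± 89.0 (SD, n = 6) to 276 ± 148 (SD, n = 6), by 0.51 on the log2 scale (SE 0.10, limma adjusted p = 0.0940) and also in 6 of 6. The gene that fell, *mllt1b* (log2 fold change -0.87, limma adjusted p = 0.0665), entered through an older symbol and is not known here as an oocyte gene. The paper had listed that symbol as lowered by ethanol on these same arrays, so the value of *mllt1b* is a description only. The call of *btg4* was lost without any 1 experiment, that of *mos* without any except experiment 4, and both with median centring (limma adjusted p = 0.187 and 0.164), while that of *mllt1b* was lost only without experiment 3 (0.178). The median of the list was 0.07 (0.09 without *mllt1b*), 0.22 with quantile normalization and just under 0 with median centring, and *ccnb1*, a cyclin gene with the highest signal in it, had a log2 fold change of 0.09. Experiment was called for 7 of these 12 (17.9% of all tested), among them the growth factor gene *gdf3* (F = 19.8, limma adjusted p = 0.00807), with 2750, 3352, 5891, 5953, 6718 and 2886 as mean signals in experiments 1 to 6.

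Among 17 genes of maternal RNA clearance and microRNA processing, the median was 0.06, or -0.01 with median centring. Of the 17, 1 was called, higher, while 5.40% of all tested probe sets were called in either direction. This was *dicer1*, whose product cuts microRNA precursors, at 317 ± 52.2 (SD, n = 6) in controls and 471 ± 57.0 (SD, n = 6) in ethanol arrays. Its log2 fold change was 0.58 (SE 0.12, limma adjusted p = 0.0985), and it was higher in 6 of 6 experiments. The call was lost without any 1 experiment except experiment 2, and with median centring (limma adjusted p = 0.177). *pabpc1a*, a poly(A)-binding protein gene with the highest signal of the list, had a log2 fold change of -0.16 (limma adjusted p = 0.379).

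**Figure D4:**
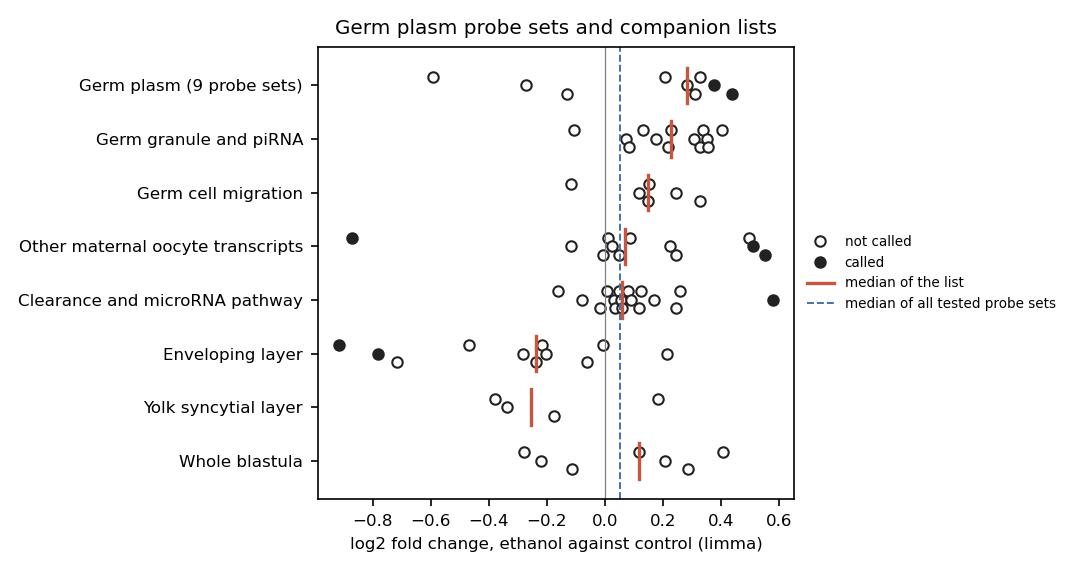
Log2 fold change with ethanol of each germ plasm probe set and of each gene in the other lists (filled where called), with the list medians and the median of all tested probe sets (0.05). Germ granule and piRNA genes have 12 of 13 values above 0 and a median of 0.23, while the enveloping layer has 1 of 11 above 0 and a median of -0.24. Of all tested probe sets, 59.7% lie above 0.

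Markers of other cells in the pools were read beside these genes. Among them, the paper had reported *elf3* of the enveloping layer, and *hnf4a* and *gata6* of the yolk syncytial layer, as lowered by ethanol. Those reports came from these same arrays, so the values of these genes are a description only. The same holds for their part in the counts and medians of their lists. Of 11 enveloping layer genes, markers of the outer epithelium of the embryo, 2 fell (1.62% of all tested probe sets). These were *elf3* (log2 fold change -0.92, limma adjusted p = 0.0435), a transcription factor gene, and *anxa1c* (-0.78, limma adjusted p = 0.108), an annexin gene. The call of *elf3* held without any 1 experiment, and that of *anxa1c* was lost in each case (limma adjusted p 0.171 to 0.213). The median of the 11 was -0.24, and 1 was above 0 (3 with quantile normalization), against 59.7% of all tested probe sets. Their summed signal ran from 36155 to 47613 in control and from 34917 to 44127 in ethanol arrays. *krt8*, a keratin gene with the highest signal of the list, had a log2 fold change of -0.28 (limma adjusted p = 0.221). Such sums, here and below, follow the brightest probe sets. In control arrays *krt8* averaged 13775 and *elf3* 95.5. Of 7 yolk syncytial layer genes on the array, 4 were tested and none was called, with a median of -0.26 and summed signals of 2350 to 3934 in control and 2216 to 3230 in ethanol arrays. The brightest of these, *mxtx2*, a homeobox gene of that layer, had a log2 fold change of 0.18 and was the only 1 of the 4 above 0. *gata6*, named with its values known, was lower in 6 of 6 experiments (log2 fold change -0.34, limma adjusted p = 0.151). It was called with quantile normalization, where the list median was -0.34, and not with median centring, where that median was -0.33. For 7 genes of a list named whole blastula the median was 0.12 and none was called, with summed signals of 49532 to 60956 and 52686 to 62349. That list takes in *tbxta*, *vox*, *ved* and *foxi1*, and is not a reference of evenly expressed genes. In it *pou5f3*, the pluripotency factor gene with the highest signal, had a log2 fold change of -0.11. The enveloping layer genes *cldnf* and *anxa1b* averaged under the minimum of 50 in ethanol arrays (43.1 and 42.2), and 3 of the 7 yolk syncytial layer genes were under it in both treatments. The part of cell makeup or developmental stage in the germ plasm values was not tested.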

How the data were processed

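Total RNA of 12 embryo pools was labelled and hybridized to 1-colour arrays. The authors made MAS5 signals in Affymetrix Expression Console and deposited them as linear intensity, 1 value per probe set. Its version is not given in the sources read. The mean signal, trimmed by 2% at each end, was 500.1 on all arrays, which is not the scaling target stated in the methods, so only the equal scale is used. Per the methods, a further experiment with degraded RNA had been left out. The study used a filter on Present calls, and here a probe set instead needed a mean signal of 50 or more in 1 of the treatments.

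Affymetrix control probe sets (115) and 5735 probe sets under the minimum were left out, and 9767 were tested. Names came from the platform annotation (10802 probe sets with 1 symbol, 135 with several and 4680 with none), of which 10718 gene IDs were found in the RefSeq gene table, and *ca15b* from the study's supplementary list. Log2 signals were fitted in limma 3.58.1 under R 4.3.3 by lmFit and eBayes, with terms for ethanol and experiment, in place of the methods' random effect and Storey q. The experiment term was tested by F at an adjusted p under 0.05. Exact tests were run with scipy 1.17.1 and numpy 2.4.6 in Python 3.11.15, summaries were made with pandas 2.3.3, and matplotlib 3.10.9 drew the figures.

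Same-numbered arrays were taken as the pair of an experiment, as the labels number them and the methods fit experiment. Their deviations from treatment means correlated at 0.448, 0.502, 0.373, 0.396, 0.456 and 0.669 for experiments 1 to 6. An array of another number was closer for the control arrays of experiments 1, 3 and 4 and the ethanol arrays of experiments 2 and 3, so that the pairing rests on the labels and the methods. With the experiment term in the fit, the ethanol p-values rest on the spread of the ethanol to control ratio between experiments. By eBayes, limma blends that spread for each probe set with the typical spread of all tested probe sets. The F test for experiment sets the differences between experiments against that same blended spread. Each experiment was independent and of pooled embryos.

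In 1 simulation of the ethanol test on 9767 probe sets, 64 of 100 changed 1.5-fold and 93 of 100 changed 2-fold were called, with 23 of 9567 unchanged ones. Its noise was drawn independently for each probe set and array, so it does not cover a shift shared by the probe sets of an array. It held no change as small as those of the called *kop* (1.30-fold) and *dnd1* (1.35-fold) probe sets. For experiment, 27 of 2000 without an effect were called.

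The members and the gene lists were chosen with earlier results of these data known. The rule for named genes was every member probe set, each called gene and the gene of highest mean signal of each list, and the 3 genes most like the mean member profile. Genes named for their experiment call or declared in the text fall outside it. Leaving out *ca15b* was added after seeing the data. Where a listed gene had several tested probe sets, the brightest on average stood for it. The alternatives were no and a random block for experiment, the methods' model with Storey q, a stricter threshold, other signal minimums, quantile normalization, median centring, an added 50 before log2, probe sets averaged per gene and leaving out each experiment.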

Additional observations from a re-analysis of the deposited data

Results flagged for a closer look

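Over 27 groups of 6 values (control signals, ethanol signals and ratios of each germ plasm probe set), 4 held a sample far from the other values, by the gap to its nearest neighbour over the range of the group, with 0.625 as the 95% limit. Chance marks about 1 in 20 groups. The *kop* signal of experiment 3 stood apart in both treatments, at 22.8 in the control array (gap 0.683 of the range) and 33.7 in the ethanol array (gap 0.681). The *ca15b* ethanol array of experiment 6 stood apart at 773 (gap 0.765). The log2 ratio of experiment 3 on the second *piwil1* probe set stood apart at 1.24 (gap 0.714).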

How the results depend on the processing

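The 527 ethanol calls over all probe sets, and the 2 among the germ plasm probe sets, became 1 and 0 without the replicate block (804 at an unadjusted p under 0.05, of which 2 germ plasm), 33 and 0 at an adjusted p under 0.05, 2 and 0 with no signal filter, 248 and 1 (*kop*) with quantile-normalized arrays, and 180 and 0 with arrays centred on their medians. At a signal minimum of 100 there were 824 calls, 3 of them among the 8 germ plasm probe sets then tested. Leaving out 1 experiment at a time gave 21 to 143 calls over all and 0 to 0 among the germ plasm probe sets. The exact sign-flip test reached its smallest p for 4 of them, among them *ca15b*. That p is reached wherever all ratios of a probe set share a sign, and it was not adjusted over probe sets. The shares of all tested probe sets with such ratios are given in the Results. The methods' model with Storey q gave 657 and, beside *ca15b*, which had entered through that model's calls, the same 2 probe sets.

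Experiment was called for 1751 probe sets and 3 germ plasm probe sets, against 256 and 1 with no filter, 2652 and 5 with 50 added, and 3619 and 6 at an adjusted p under 0.15. Without 1 experiment at a time there were 847 to 1377 calls over all, fewest without experiment 6. The causes were not tested.

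The median log2 fold change of the germ plasm probe sets tested was 0.20 to 0.32 under the alternatives that give one, over 8 probe sets at a signal minimum of 100 and over 7 genes with probe sets averaged (0.21). Without *ca15b* it was 0.24, with 2 called with ethanol and 2 for experiment. The 2 called probe sets lost their call in 23 of 29 values under alternatives, those not called gained one in 5 of 105, and 0 changed sign. A sign could change only with quantile normalization, median centring, 50 added or an experiment left out. The other alternatives in these counts leave the log2 fold change of a probe set as it was. These counts leave out averaging per gene, where *dnd1* had a log2 fold change of -0.08 and *piwil1* one of 0.09. There *kop* and *ca15b* were called (limma adjusted p = 0.110 and 0.143). The 12 arrays limit what can be shown.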
